A study of Mus musculus with 18 samples.

Results

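The Rhox genes are a family of X-linked homeobox genes, taken here as every gene in the deposited expression tables whose symbol is Rhox followed by a number. They were selected because several of them were higher in mouse embryonic stem cells (ESCs) on day 7 of hypoxia, so the ESC day 7 levels below describe the choice and test nothing. There were 17 members among the 14804 genes listed in at least 1 of the 3 tables, out of 34 protein-coding Rhox genes in the GENCODE M21 annotation of mouse genome GRCm38 (mm10). Of these, 7 were listed for ESCs, 9 for trophoblast stem cells (TSCs) and 7 for extraembryonic endoderm (XEN) cells, and all of them passed the filter on low values. Only Rhox5 was listed in all 3 tables.

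Homeobox genes encode DNA-binding transcription factors. The Rhox cluster is known from the testis, epididymis, ovary and placenta, and its genes are grouped by position into the alpha (Rhox1 to Rhox4), beta (Rhox5 to Rhox9) and gamma (Rhox10 to Rhox13) subclusters. In the mouse, DNA methylation keeps much of the cluster silent in the embryo proper while the placental lineage expresses it, and the alpha subcluster has been copied several times, which leaves sets of nearly identical Rhox2, Rhox3 and Rhox4 genes.

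The study asked how 3 stem cell types of the early mouse embryo respond to low oxygen. ESCs model the epiblast, TSCs the trophectoderm and XEN cells the primitive endoderm. Each type was grown in normoxia (20% O2) or in hypoxia (2% O2) for 2 or 7 days, with 2 RNA-seq libraries per condition and 18 in all, and carried no genetic change or drug that the labels name. The ESCs were the wild-type E14 line, grown without feeders in serum and LIF. No line name is given for the other types, and TSCs were kept on fibroblast feeders and XEN cells in feeder-conditioned medium. The study's methods call the 2 libraries of a group biological replicates without saying how they were separated, and p-values measure the spread between these libraries only.

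The files hold TPM, reads scaled by gene length and by library total, in which the length of a gene was its whole genomic span, introns included. TPM multiplied by span gave whole numbers of reads for 98.7 to 98.9% of values (within 0.05), which puts the depth at 35593068 to 75204939 gene reads per library. Levels of different Rhox genes are therefore ranked in the text only after rescaling the reads by exon length (exon-length TPM). Sums over marker genes or Rhox copies add TPM as deposited, in which genes of short span weigh more. Fold changes are differences of log2(TPM + 0.5), which understates the change of low genes. The labelled cell types matched these markers: the ESC factor Pou5f1 ran from 1568 to 2009 TPM in ESCs and from 0.842 to 1.48 TPM in XEN cells, the TSC factor Elf5 from 14.7 to 85.1 TPM in TSCs, and Sox17 from 1009 to 1393 TPM in XEN cells. Pou5f1 and Sox17 were not listed for TSCs and Elf5 was not listed for ESCs. Not every marker was so specific. The ESC marker Klf4 was higher in XEN cells (623 to 1193 TPM) than in ESCs (326 to 442 TPM). The ESC markers Utf1 and Sox2 reached 3323 and 1104 TPM in TSCs, below their ESC levels.

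The listed members cover 11 of 24 alpha, 3 of 6 beta and 3 of 4 gamma genes, and the whole cluster spans chrX:37213804-38129967, or 916.2 kb. Which copy a read belongs to is uncertain for part of the family. Of all stretches of 75 bases (the read length) in the spliced transcripts, 100% were found in no other gene for Rhox1, Rhox5, Rhox10, Rhox12 and Rhox13, 95.7% for Rhox9 and 88.4% for Rhox6, which share sequence with each other. The share was lower for the copied genes. It was 21.7% for Rhox2a, 26.3% for Rhox2b, 56.3% for Rhox2f, 68.0% for Rhox2g and 71.5% for Rhox2h. Among the Rhox4 genes it was 7.71% for Rhox4b, 12.9% for Rhox4e, 19.7% for Rhox4d, 33.0% for Rhox4g and 38.8% for Rhox4c. Values of single Rhox2 and Rhox4 copies are given with that limit, together with the sum over the copies.

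**Figure D1:**
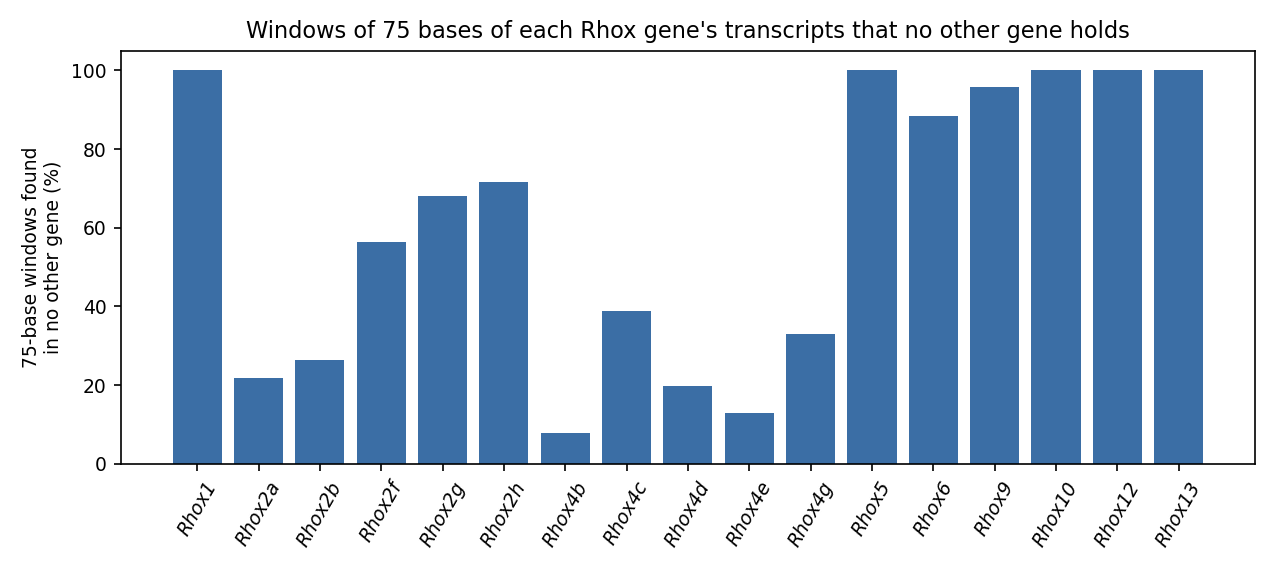
Percentage of the 75-base stretches of each listed Rhox gene's spliced transcripts that occur in no other annotated transcript, with 1 bar per gene. Single-copy genes reach 100%, Rhox6 and Rhox9 stand at 88.4% and 95.7%, and the Rhox2 and Rhox4 copies run from 7.71% to 71.5%.

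The coding sequences show how close the copies are. Over 576 coding bases the 5 listed Rhox2 genes were 94.1 to 99.1% identical to each other in their 10 pairs, with 5 to 34 substitutions. The first 75 coding bases are shown for these genes because XEN cells expressed all of them. The sequences follow the GENCODE M21 gene models on GRCm38, run 5′ to 3′, and cover parts of exons 1 and 2 with the intron removed, so the coordinates are wider than the sequence. Capitals mark bases that differ from Rhox2a.
Rhox2a (chrX:37245020-37245256, plus strand): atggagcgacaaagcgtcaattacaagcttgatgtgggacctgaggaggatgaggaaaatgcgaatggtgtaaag
Rhox2b (chrX:37412111-37412347, plus strand): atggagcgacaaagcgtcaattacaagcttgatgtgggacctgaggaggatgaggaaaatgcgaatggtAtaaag
Rhox2f (chrX:37571449-37571685, plus strand): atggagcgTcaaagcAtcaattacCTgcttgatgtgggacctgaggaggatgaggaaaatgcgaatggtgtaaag
Rhox2g (chrX:37643190-37643426, minus strand): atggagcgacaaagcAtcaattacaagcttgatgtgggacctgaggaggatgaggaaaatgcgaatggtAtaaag
Rhox2h (chrX:37673013-37673249, minus strand): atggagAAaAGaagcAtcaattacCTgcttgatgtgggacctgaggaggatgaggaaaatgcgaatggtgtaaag

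Over 618 coding bases the 5 listed Rhox4 genes were 98.9 to 99.7% identical, with 2 to 7 substitutions per pair. In the same window, again drawn from exons 1 and 2, Rhox4c and Rhox4g matched Rhox4b at every base and Rhox4e had the same sequence as Rhox4d, so 2 sequences stand for the 5 genes measured in TSCs. Capitals mark the base that differs from Rhox4b.
Rhox4b (chrX:37432625-37432889, plus strand): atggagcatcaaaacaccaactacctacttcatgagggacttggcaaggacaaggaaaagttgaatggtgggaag
Rhox4d (chrX:37514539-37514803, plus strand): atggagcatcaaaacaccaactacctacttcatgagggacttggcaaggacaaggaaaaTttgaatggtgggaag

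Rhox6 and Rhox9, both abundant in TSCs, were 90.6% identical over their coding sequences (64 substitutions in 684 bases), whereas Rhox5 and Rhox6 were 47.1% identical. The first 75 coding bases of this pair lie in exon 1, and capitals mark bases of Rhox9 that differ from Rhox6.
Rhox6 (chrX:37827098-37827172, plus strand): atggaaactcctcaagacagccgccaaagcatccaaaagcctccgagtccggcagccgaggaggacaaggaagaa
Rhox9 (chrX:37901605-37901679, minus strand): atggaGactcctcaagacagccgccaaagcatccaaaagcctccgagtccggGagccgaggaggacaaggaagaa

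Promoters are shown for the members whose levels the results turn on: Rhox1, Rhox2a and Rhox5 in ESCs, and Rhox4g and Rhox12 in TSCs. RefSeq promoters (GRCm38.p6) were matched by symbol for 13 of the 17 members, with no entry for Rhox2f, Rhox4d, Rhox6 and Rhox9. Each sequence is the 250 bases before the annotated start, 5′ to 3′ on the strand of the gene, and capitals mark CG pairs, the dinucleotide that carries DNA methylation in mammals. Methylation itself was not measured in these libraries.
Rhox1 (chrX:37222259-37222508, minus strand): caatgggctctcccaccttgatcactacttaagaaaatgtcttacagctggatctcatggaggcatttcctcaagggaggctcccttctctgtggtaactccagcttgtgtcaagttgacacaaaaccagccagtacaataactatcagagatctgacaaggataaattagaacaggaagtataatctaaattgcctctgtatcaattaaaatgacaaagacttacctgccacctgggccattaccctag
Rhox2a (chrX:37244742-37244991, plus strand): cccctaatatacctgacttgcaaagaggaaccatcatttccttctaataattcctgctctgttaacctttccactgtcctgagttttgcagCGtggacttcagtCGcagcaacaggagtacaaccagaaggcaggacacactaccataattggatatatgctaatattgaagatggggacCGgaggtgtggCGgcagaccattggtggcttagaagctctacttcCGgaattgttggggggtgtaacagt
Rhox5 (chrX:37754358-37754607, plus strand): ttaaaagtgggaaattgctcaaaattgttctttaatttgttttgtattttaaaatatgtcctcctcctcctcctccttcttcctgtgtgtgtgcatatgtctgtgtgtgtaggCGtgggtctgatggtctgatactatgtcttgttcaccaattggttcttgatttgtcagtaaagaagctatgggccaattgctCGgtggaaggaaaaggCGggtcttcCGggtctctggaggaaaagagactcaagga
Rhox4g (chrX:37651328-37651577, minus strand): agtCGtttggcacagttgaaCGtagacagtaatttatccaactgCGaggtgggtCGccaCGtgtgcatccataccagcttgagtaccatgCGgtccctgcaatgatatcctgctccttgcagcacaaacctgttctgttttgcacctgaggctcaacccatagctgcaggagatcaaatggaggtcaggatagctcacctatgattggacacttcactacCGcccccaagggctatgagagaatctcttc
Rhox12 (chrX:38110908-38111157, minus strand): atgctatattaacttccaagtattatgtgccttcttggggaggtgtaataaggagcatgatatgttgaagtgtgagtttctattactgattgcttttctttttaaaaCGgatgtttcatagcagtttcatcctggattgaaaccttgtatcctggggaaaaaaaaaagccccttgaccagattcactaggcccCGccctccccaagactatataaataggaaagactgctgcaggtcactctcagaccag

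The 13 promoters held 0 (Rhox1) to 8 (Rhox10) CG pairs, against a median of 6 and quartiles of 2 and 16 over 32851 promoters of the same length. Rhox12 had 2, Rhox5 4, Rhox2a 5 and Rhox4g 7. The 2 core motifs of hypoxia-inducible factor sites, ACGTG and GCGTG, were searched on both strands, together with CACGTG, which contains the first of them. The motif ACGTG was in 4 of the 13 (Rhox4b, Rhox4e, Rhox4g and Rhox10) against 16.6% of all promoters, GCGTG in 6 (Rhox2a, Rhox2b, Rhox2g, Rhox5, Rhox10 and Rhox13) against 28.2%, and CACGTG in 3 (Rhox4b, Rhox4e and Rhox4g) against 6.02%. The 4 promoters with none of these motifs were those of Rhox1, Rhox2h, Rhox4c and Rhox12. Promoters of the copies resemble each other, with 76.9 to 92.3% identity among the Rhox4 pairs and 70.5 to 95.6% among the Rhox2 pairs. Their hits are thus not independent, and the shares are not a test of enrichment. These are letter matches in a short window and say nothing of binding. The RefSeq start of Rhox5 used here lies 50234 bases before the start of the GENCODE M21 gene model.

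In ESCs, 5 of the 7 listed Rhox genes were far higher on day 7 of hypoxia than in normoxia, and the remaining Rhox10 and Rhox13 differed little. Rhox5, the founding member of the family, was the most abundant per exon length. Its level was 90.6 and 79.9 TPM in the 2 normoxic libraries, 87.5 and 88.3 TPM on day 2, and 239.6 and 261 TPM on day 7. The day 7 libraries stood apart from the other 4, which overlapped one another, and the log2 fold change against normoxia was 1.55 ± 0.13 (SE, n = 2 per group). Rhox6 and Rhox9, its neighbours in the beta subcluster and known from the placenta, had a like course.

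Rhox6 was at 19.997 and 11.7 TPM in normoxia, 24.6 and 9.19 TPM on day 2, and 68.4 and 71.6 TPM on day 7. Rhox9 was at 16.0 and 14.02 TPM in normoxia, 21.6 and 11.6 TPM on day 2, and 62.3 and 66.3 TPM on day 7. For both genes the lowest day 7 library was above every other library, and the replicates of day 2 differed from each other as widely as from normoxia. The day 7 log2 fold changes were 2.16 ± 0.40 for Rhox6 and 2.06 ± 0.25 for Rhox9 (SE).

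The alpha subcluster contributed 2 genes at low levels. Rhox1, the first gene of the cluster, was at 1.95 and 1.43 TPM in normoxia, 2.54 and 3.16 TPM on day 2, and 5.72 and 4.80 TPM on day 7, a log2 fold change of 1.40 ± 0.21 (SE) on day 7. Rhox2a was at 0.471 and 0.286 TPM in normoxia, 0.780 and 0.821 TPM on day 2, and 3.256 and 3.82 TPM on day 7, a log2 fold change of 2.20 ± 0.20 (SE). For both genes the 3 conditions did not overlap, with day 2 between normoxia and day 7. The Rhox2a values rest on 6 and 7 reads in normoxia against 62 and 73 on day 7, and may include reads of other Rhox2 copies. In all cell types, 65.0 to 73.1% of low read counts per library were even. Both reads of a pair may thus be counted, and fragments may be fewer than the read numbers given here.

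The gamma genes moved least. Rhox10, known for its role in male germ cells, was at 2.19 and 2.32 TPM in normoxia, 2.51 and 4.52 TPM on day 2, and 4.03 and 2.56 TPM on day 7 (log2 fold change 0.43 ± 0.29, SE). Rhox13, a testis-expressed member, was at 5.14 and 5.05 TPM in normoxia, 5.46 and 4.95 TPM on day 2, and 6.44 and 5.97 TPM on day 7 (0.26 ± 0.17, SE). The day 2 libraries of Rhox10 spanned the whole range of its day 7 libraries.

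As a description of the choice, 5 of 7 members (Rhox1, Rhox2a, Rhox5, Rhox6 and Rhox9) were differentially expressed (DE) and higher on day 7 than in normoxia, with DE set at an adjusted p of at most 0.1 and a fold change over 1.5 in limma. Of the 12271 genes tested, 0.717% were DE in that direction. The median log2 fold change was 1.55 over the 7 members and 0.02 over all genes. All 7 had both day 7 libraries above both normoxic ones, as did 23% of all genes. The Rhox6 call was lost with no filter on low values, with median-ratio scaling and without the trend (adjusted p 0.190, 0.160 and 0.130 against 0.0813), at about the same fold. With 1 normoxic library left out the DE count was 2 (without replicate 1) or 1 (without replicate 2), and with 1 day 7 library left out it was 2 (without replicate 1) or 3 (without replicate 2).

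On day 2, 0 of the 7 members were DE against normoxia, and 0% of all genes were (limma, smallest adjusted p of any gene 0.215), with 620 genes and 2 members, Rhox1 and Rhox2a, at an unadjusted p under 0.05 and 0 members DE by voom on the recovered reads. The log2 fold change was 0.61 for Rhox1 and 0.57 for Rhox2a. The median over the members was 0.08. This comparison uses the same normoxic libraries as that of day 7. Between day 7 and day 2, which shares the day 7 libraries with the choice of the genes, Rhox2a (1.63), Rhox5 (1.504) and Rhox9 (1.99) were DE and higher, where 0.179% of all genes were. Rhox6 had a log2 fold change of 2.18 and did not pass, and the median was 1.504 over the members and 0.01 over all genes. The Rhox9 call was lost with no filter (adjusted p 0.113) and with median-ratio scaling (0.125), and under voom Rhox2a was lost (0.232) and Rhox6 passed (0.0736). The count of DE members fell from 3 to 0 without either day 7 library and to 1 without either normoxic library, which enters only through the shared spread.

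**Figure D2:**
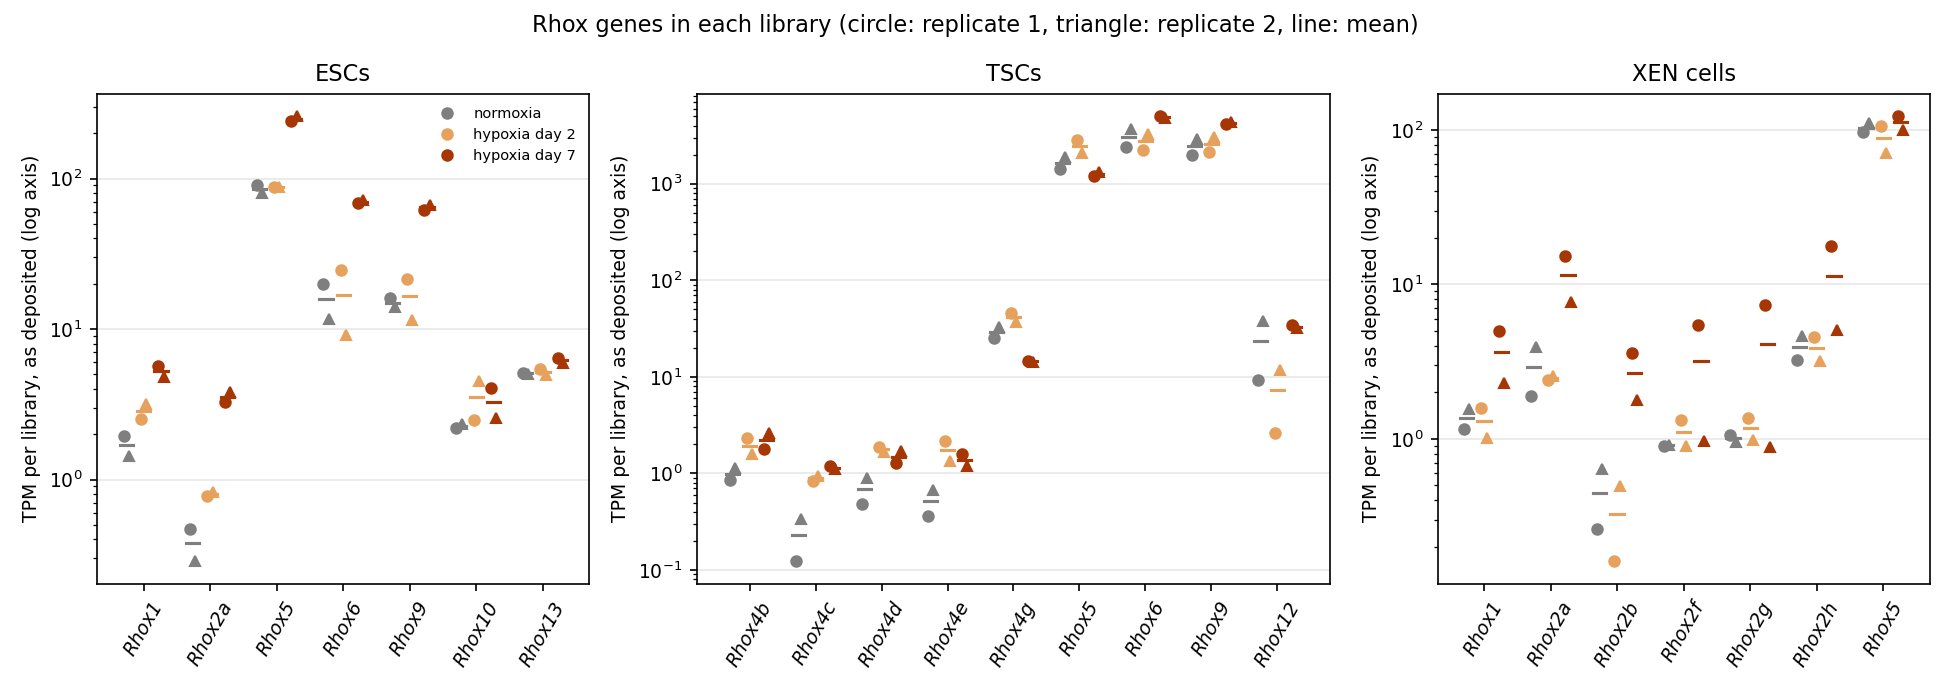
TPM of each listed Rhox gene (log axis) in the ESC, TSC and XEN panels, 1 point per library (circle for replicate 1, triangle for replicate 2) and a line at the mean, with normoxia, hypoxia day 2 and hypoxia day 7 side by side. In ESCs the day 7 points of Rhox1, Rhox2a, Rhox5, Rhox6 and Rhox9 lie above all others, in TSCs Rhox5, Rhox6 and Rhox9 lie far above the other members, and in XEN cells the Rhox2 day 7 points lie far apart.

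Compared per exon length, Rhox5 led in ESCs at 216 ± 15 exon-length TPM in normoxia (SD, n = 2), followed by Rhox13 at 17.1 ± 0.13 and Rhox6 at 15.5 ± 5.4, which overlapped. Rhox1 (5.43 ± 1.1), Rhox9 (5.42 ± 0.40) and Rhox10 (5.19 ± 0.33) did not differ beyond their spread, and Rhox2a was lowest at 0.708 ± 0.23. The exon length of Rhox9 (2488 bases, against 883 for Rhox1 and 763 for Rhox10) includes a long transcript model. This lowers Rhox9 on this scale, so its rank here and on day 7 is uncertain. By day 7 the order was Rhox5 (630 ± 43), Rhox6 (68.3 ± 2.7), Rhox9 (23.1 ± 1.2), Rhox13 (20.7 ± 0.94), Rhox1 (16.8 ± 1.9), Rhox10 (7.51 ± 2.3) and Rhox2a (6.59 ± 0.79). The last 2 overlapped. Rhox6 thus overlapped Rhox13 in normoxia and stood above it on day 7. In bulk RNA, more cells with a transcript and more transcript per cell cannot be told apart.

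**Figure D3:**
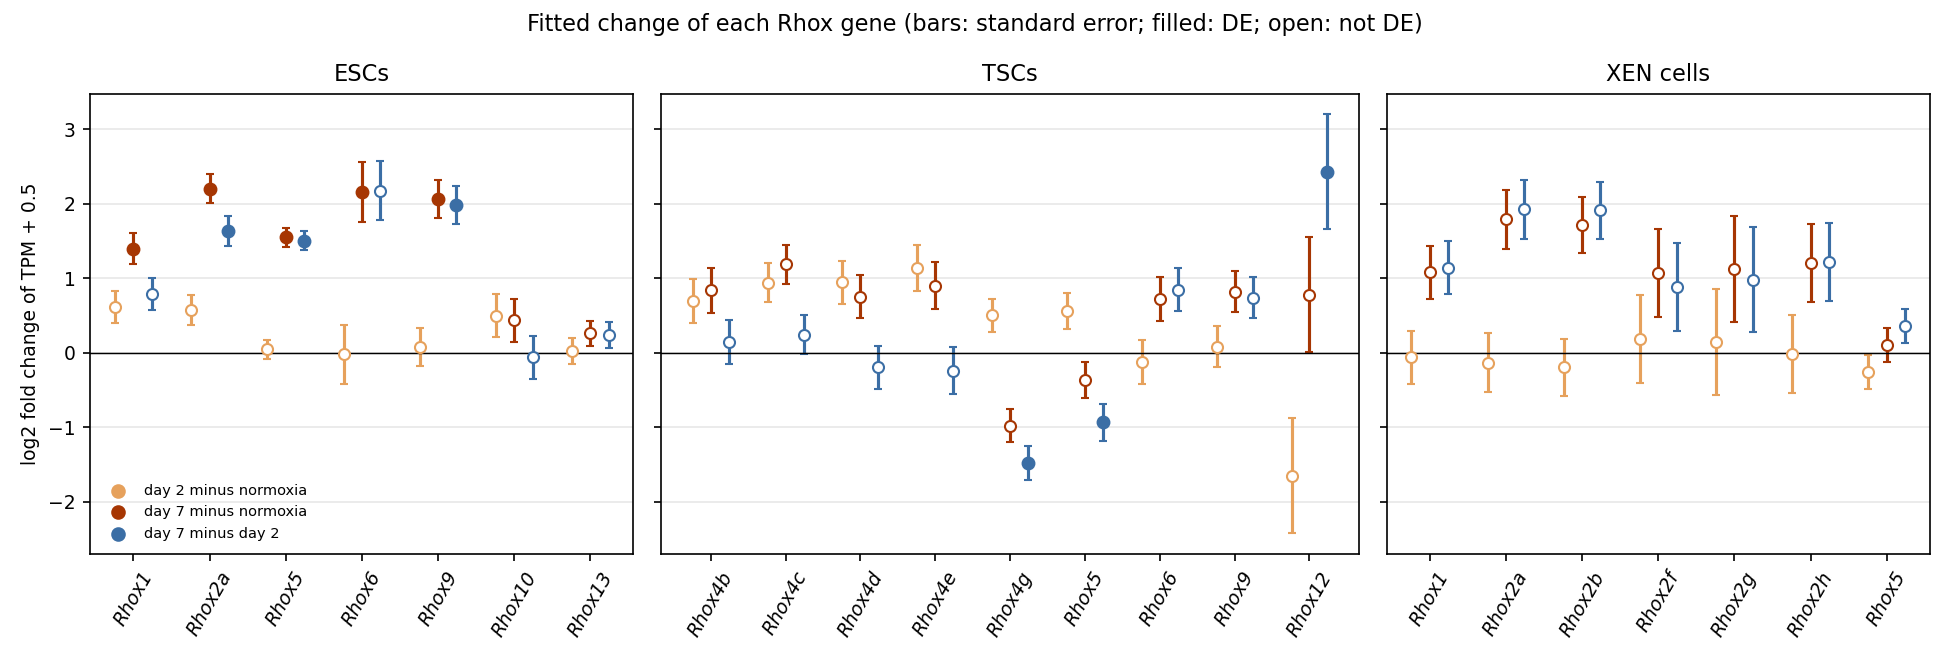
Log2 fold change (difference of log2(TPM + 0.5)) of each listed Rhox gene in the 3 comparisons, with bars for the standard error from limma, filled points for DE genes and 1 panel per cell type. In ESCs the day 7 values against normoxia run from 0.26 to 2.20, in TSCs Rhox4g and Rhox5 lie below 0 on day 7 while Rhox6 and Rhox9 lie above it, and in XEN cells Rhox5 lies near 0.

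Other gene groups known to be kept silent by DNA methylation or related complexes were counted in the same ESC comparison. Of the other X-linked testis gene families (Magea, Xlr and related genes, a list chosen with these results known), 12 of 15 tested genes were DE and higher on day 7, with a median log2 fold change of 1.66. Magea4 went from 4.68 and 2.84 TPM to 49.3 and 34.6 TPM (3.33), Xlr3a from 2.35 and 1.18 TPM to 13.6 and 12.5 TPM (2.63), and Xlr3b from 0.709 and 0.460 TPM to 5.96 and 6.38 TPM (2.63). Among all X-linked genes other than the Rhox members, a set that still includes these families, 16 of 431 were DE and higher, with a median of 0.04. Meiosis and germline genes known to be silenced by DNA methylation or the PRC1.6 complex had 3 of 24 DE and higher (Tuba3b 2.04, Hormad1 1.07 and Tuba3a 1.05), with a median of 0.22.

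The genes of the enzymes and complexes themselves were not DE, where 88 of 12271 tested genes were DE and higher and 5 lower. Enzyme activity was not measured, and the part of these enzymes and complexes in the Rhox levels was not tested. In the list of DNA methylation and demethylation enzymes, 0 of 9 passed in limma (median 0.01, 0 at an unadjusted p under 0.05), with the demethylases Tet1 at −0.58 and Tet2 at −0.39 as the largest log2 fold changes. In that of H3K9 methylation and PRC1.6 repressors, 0 of 22 passed (median −0.06, 1 at an unadjusted p under 0.05), with Mga at −0.34 and Cbx5 at −0.33. Of other paired-like and placental homeobox genes 1 of 13 was DE, Crxos, from 1.10 and 0.975 TPM to 3.48 and 3.33 TPM (log2 fold change 1.35). All 10 core hypoxia genes had a log2 fold change above 0 on day 7, and 2 of 10 were DE (Ndufa4l2 3.66 and the lactate dehydrogenase gene Ldha 0.99).

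The genes around the cluster were mostly level. Of the 20 tested genes within 1 Mb, 1 was DE, Gm9, which lies 2.8 kb before the cluster. Gm9 was at 2.25 and 0.795 TPM in normoxia, 1.93 and 2.74 TPM on day 2, and 14.02 and 9.25 TPM on day 7 (log2 fold change 2.66). The next gene on that side, Rnf113a1, 21.3 kb away, was at 0.24, and Zbtb33, 59.8 kb past the other end and encoding a protein that binds methylated DNA, was at −0.11. Rnf113a1 stood at 80.4 to 104.6 TPM and Zbtb33 at 40.9 to 63.0 TPM over the 6 libraries.

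**Figure D4:**
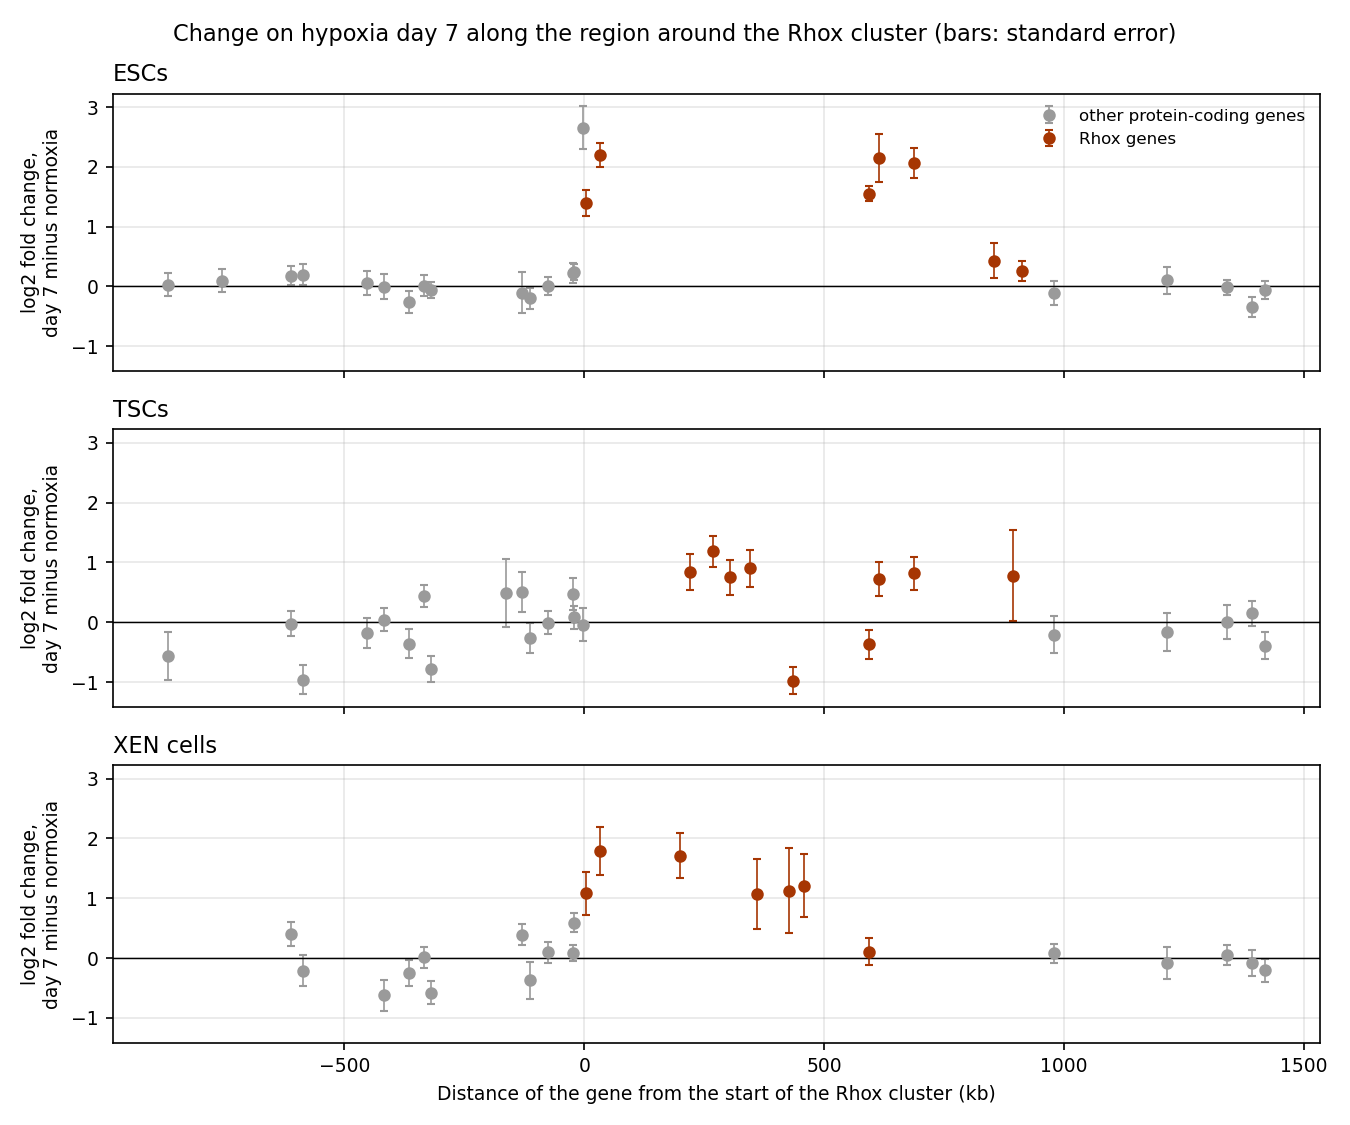
Log2 fold change between day 7 and normoxia of the listed genes by distance from the start of the Rhox cluster (kb), with 1 panel per cell type, Rhox genes and other genes in different colours and bars for the standard error. In ESCs Rhox1, Rhox2a, Rhox5, Rhox6, Rhox9 and Gm9 stand above the other genes. Rhox10 (0.43) and Rhox13 (0.26) lie close to neighbours such as Rnf113a1 (0.24).

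Markers of other cells were read beside these results. In ESCs 2 of 7 tested TSC markers were DE and higher on day 7, Hand1 from 2.16 and 2.07 TPM to 12.7 and 8.32 TPM (log2 fold change 2.04) and Krt7 from 0.822 and 0.536 TPM to 3.46 and 3.02 TPM (1.67). The summed level of the 8 listed TSC markers was 108 to 109 TPM in normoxia, 127 to 141 TPM on day 2 and 168 to 174 TPM on day 7, while the defining marker Elf5 was not listed. Of 8 primordial germ cell markers 1 was DE, Dppa3 (1.06), with sums of 954 to 1018 TPM in normoxia and 1262 to 1315 TPM on day 7. Of 4 tested fibroblast markers 1 was DE, Col1a1 (2.30), from 1.58 and 1.53 TPM to 15.1 and 6.05 TPM. Col1a2 and Col3a1 were also higher on day 7, at or below 1.14 TPM, while Thy1 and Twist1 overlapped normoxia. The fibroblast sums, 39.7 to 45.9 TPM in normoxia and 43.3 to 50.7 TPM on day 7, were mostly Thy1 and Twist1. None of 8 XEN markers, 7 markers of 2-cell-like cells or 9 ESC markers was DE in this limma fit, with 2, 0 and 1 of them at an unadjusted p under 0.05. The part of such cells in the Rhox levels was not tested.

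The genes whose course over the 6 ESC libraries was most like the mean of the Rhox members were Xlr3c (r = 0.9985), Magea4 (0.997), Xlr3b (0.9943), Ikbke (0.9892) and Pkd2l1 (0.9871), out of 1201 genes that spanned at least 1 log2 unit. Xlr3c, Magea4 and Xlr3b are X-linked and Ikbke lies on chromosome 1. These coefficients describe 6 libraries and share their normoxic, day 2 and day 7 groups.

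TSC libraries played no part in the choice of the genes. Rhox5, Rhox6 and Rhox9 were the most abundant members in these cells per exon length. Between day 2 and day 7 of hypoxia Rhox4g and Rhox5 fell and Rhox12 rose. No member was DE between normoxia and either time.

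Rhox5 was at 1407 and 1873 TPM in normoxia, 2809 and 2056 TPM on day 2, and 1189.6 and 1324 TPM on day 7. Both day 7 libraries were below the other 4, and both day 2 libraries were above the normoxic ones. Its log2 fold change was −0.94 ± 0.24 (SE, adjusted p = 0.0631) between day 7 and day 2, 0.57 (0.385) on day 2 against normoxia and −0.37 (0.651) on day 7 against normoxia. Rhox4g, the main Rhox4 copy in these values, was at 25.3 and 33.2 TPM in normoxia, 45.7 and 37.4 TPM on day 2, and 14.7 and 14.3 TPM on day 7. It followed the same order of conditions without overlap, and between day 7 and day 2 it fell by 1.48 on the log2 scale (SE 0.22, adjusted p = 0.0198).

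Rhox12, a gamma gene, was at 9.39 and 38.2 TPM in normoxia, 2.65 and 11.8 TPM on day 2, and 34.6 and 31.7 TPM on day 7. The day 2 and day 7 libraries did not overlap, whereas the 2 normoxic libraries lay far apart, 1 of them between the day 2 libraries. The log2 fold change was 2.43 ± 0.77 (SE, adjusted p = 0.0976) between day 7 and day 2 and 0.78 (adjusted p = 0.748) on day 7 against normoxia.

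Rhox6 was at 2399 and 3651 TPM in normoxia, 2235 and 3306 TPM on day 2, and 5045 and 4734 TPM on day 7. Rhox9 was at 1976 and 2919 TPM in normoxia, 2113 and 3044 TPM on day 2, and 4121 and 4357 TPM on day 7. In both genes the day 7 libraries were above the other 4, replicate 1 was the lower of each earlier pair, and neither comparison passed the threshold. The log2 fold change against normoxia was 0.72 (adjusted p = 0.459) for Rhox6 and 0.82 (0.372) for Rhox9, and against day 2 it was 0.85 (0.118) and 0.74 (0.139).

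The other 4 Rhox4 copies were at or below 2.63 TPM. Rhox4b was at 0.861 and 1.14 TPM in normoxia, 2.31 and 1.58 TPM on day 2, and 1.77 and 2.63 TPM on day 7. Rhox4c was at 0.123 and 0.341 TPM, 0.839 and 0.947 TPM, and 1.18 and 1.11 TPM, on 2 and 6 reads in normoxia and 16 to 22 later. For these 2 copies and for Rhox4d and Rhox4e, both libraries of day 2 and of day 7 were above both normoxic ones.

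Rhox4d was at 0.489 and 0.904 TPM in normoxia, 1.88 and 1.67 TPM on day 2, and 1.28 and 1.71 TPM on day 7. Rhox4e was at 0.362 and 0.671 TPM, 2.16 and 1.34 TPM, and 1.58 and 1.19 TPM. The log2 fold changes of the 4 genes ran from 0.69 to 1.14 on day 2 and from 0.75 to 1.19 on day 7 against normoxia, and none passed the threshold (adjusted p 0.197 to 0.438). Summed over the 5 copies, Rhox4 was at 27.2 and 36.3 TPM in normoxia, 52.9 and 42.9 TPM on day 2, and 20.5 and 21.0 TPM on day 7. Without Rhox4g the sum was 1.83 and 3.05, 7.19 and 5.54, and 5.82 and 6.63 TPM.

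Between day 7 and day 2, then, 3 of 9 members were DE, 1 higher and 2 lower, where 16.2% of all genes were DE (2.37% higher and 13.8% lower). The median log2 fold change was 0.14 over the members and −0.24 over all genes. Scaling each library by its median ratio brought the median of all genes to 0.01 and changed the split of all DE genes from 296 higher and 1723 lower to 724 and 982. Under that scaling Rhox4g (−1.21, adjusted p = 0.0403) and Rhox12 (2.697, 0.0927) remained DE, and Rhox5 did not (−0.66, 0.218). The member count was 0 without day 2 replicate 1, day 7 replicate 1 or day 7 replicate 2, where the count over all genes went from 2019 to 30, 284 and 0.

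Against normoxia 0 of 9 members were DE in limma on day 7 (0.385% of all genes were; 1298 genes and 7 members at an unadjusted p under 0.05, and 0 members by voom). The groups did not overlap for 8 of the 9, with 6 members above normoxia and 2 below (41.3% of all genes, 8.98% above and 32.3% below), and the medians were 0.78 over the members and −0.18 over all genes. On day 2, 0 of 9 were DE (0.2% of all genes, with 1639 genes and 3 members at an unadjusted p under 0.05, and 0 members by voom). Both day 2 libraries were above both normoxic ones for 6 of the 9, as for 30.6% of all genes. These counts and medians take the nearly identical Rhox4 copies singly. Rhox4b, Rhox4c, Rhox4d and Rhox4e are among the members above normoxia at both times. Because their listing rests on hypoxia libraries, their place above normoxia is no support for a rise. Summed over the 5 copies, Rhox4 was lower on day 7 than in normoxia (20.5 and 21.0 against 27.2 and 36.3 TPM). Without Rhox4g the sum was higher.

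Per exon length the order in normoxic TSCs was Rhox5 (3930 ± 852 exon-length TPM, SD, n = 2), Rhox6 (2812 ± 867), Rhox9 (838 ± 242), Rhox12 (48.2 ± 42) and Rhox4g (19.4 ± 4.0), with the other Rhox4 copies at 0.158 to 0.688. Neither Rhox5 and Rhox6 nor Rhox12 and Rhox4g differed beyond their spread. On day 7 Rhox6 (4698 ± 42) stood above Rhox5 (3122 ± 348). The exon lengths of Rhox9 and Rhox4 include long transcript models, which lowers their values on this scale.

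Cell-type markers moved alongside these values. In TSCs the stem cell factors Elf5 (from 82.5 and 85.1 TPM on day 2 to 18.8 and 14.7 TPM on day 7), Cdx2 (88.0 and 169 to 40.3 and 35.1 TPM) and Eomes (271 and 469 to 142 and 104 TPM) fell between day 2 and day 7. Of 9 TSC markers 4 were DE and lower and 1 was higher (0 to 4 lower with 1 library left out), while their summed level was 9075 to 10093 TPM on day 2 and 14994 to 16857 TPM on day 7. Most of that TSC marker sum was Hand1, at 8568 and 7234 TPM on day 2 and 14763 and 12871 TPM on day 7. Over the 9 markers, 4 log2 fold changes were above 0 and 5 below. The 8 fibroblast markers, 0 of them DE in limma or at an unadjusted p under 0.05 between day 7 and day 2, summed to 1889 and 284 TPM in the normoxic libraries, 212 and 996 TPM on day 2, and 462 and 279 TPM on day 7. The library with the higher fibroblast sum had the lower Rhox6, Rhox9 and Rhox12 of the pair in normoxia and the higher of the pair on day 2, so the order was not the same across conditions. Rhox5 was lower in the library with the higher sum in all 3 conditions. The part of feeder cells or of differentiating cells in the Rhox levels was not tested.

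The genes most like the mean Rhox course over the 6 TSC libraries were Krt19 (r = 0.9894), Krt14 (0.9879), Nkapl (0.9862), Serpinb6b (0.9734) and Car4 (0.9519), out of 4933 genes. This mean takes the nearly identical Rhox4 copies singly and joins members that rose and fell between day 2 and day 7. It was −0.60 in normoxic replicate 1 and −0.02 to 0.25 in the other libraries. Krt19, an epithelial keratin, was at 311 and 1140 TPM in normoxia, 877 and 1192 TPM on day 2, and 1260 and 1598 TPM on day 7. Its lowest value was in normoxic replicate 1, as was that of Rhox9 and of Rhox4b, Rhox4c, Rhox4d and Rhox4e. Gm9, the neighbour that was DE in ESCs, was at 123 and 163 TPM in normoxic TSCs and at 129 and 148 TPM on day 7, a log2 fold change of −0.04.

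XEN cells expressed Rhox1, Rhox5 and 5 copies of Rhox2. No member was DE in any of the 3 comparisons (limma). The alpha genes had their highest value in day 7 replicate 1, and in each of them replicate 2 was lower. Rhox5 stood at a like level in all conditions, 96.9 and 109.9 TPM in normoxia, 105.9 and 70.4 TPM on day 2, and 123 and 99.9 TPM on day 7, with all groups overlapping.

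Rhox2a was at 1.90 and 3.96 TPM in normoxia, 2.39 and 2.56 TPM on day 2, and 15.2 and 7.65 TPM on day 7 (log2 fold change against normoxia 1.79 ± 0.40, SE, adjusted p = 0.282). Rhox2b was at 0.260 and 0.636 TPM, 0.161 and 0.493 TPM, and 3.58 and 1.78 TPM (1.72 ± 0.38, 0.278). In both of these copies each day 7 library was above every earlier one. Rhox1 was at 1.17 and 1.56 TPM in normoxia, 1.58 and 1.01 TPM on day 2, and 4.96 and 2.31 TPM on day 7 (1.08 ± 0.36, 0.473), again without overlap.

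The remaining copies rest on 1 day 7 library. Rhox2h was at 3.23 and 4.61 TPM in normoxia, 4.59 and 3.18 TPM on day 2, and 17.7 and 5.10 TPM on day 7 (1.21 ± 0.52, SE, adjusted p = 0.566). Rhox2f was at 0.906 and 0.910 TPM, 1.324 and 0.901 TPM, and 5.46 and 0.967 TPM (1.07 ± 0.59, 0.642). Rhox2g was at 1.06 and 0.951 TPM, 1.36 and 0.984 TPM, and 7.31 and 0.881 TPM (1.13 ± 0.71, 0.682). Day 7 replicate 2 of Rhox2g was below both normoxic libraries, and that of Rhox2f lay within the range of the earlier ones. Summed over the 5 copies, Rhox2 was at 7.36 and 11.1 TPM in normoxia, 9.82 and 8.12 TPM on day 2, and 49.2 and 16.4 TPM on day 7, on 838 reads in the higher library and 195 in the lower.

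On day 7 the DE count against normoxia was 0 of 7 (0.11% of all genes; 982 genes and 3 members at an unadjusted p under 0.05, and 0 members by voom), and both day 7 libraries were above both normoxic ones for 5 of 7, as for 17.5% of all genes. The median was 1.13 over the members and −0.03 over all genes. Of the 7 members 5 are nearly identical Rhox2 copies, which these counts and medians take singly. Leaving out day 7 replicate 2 gave 2 DE members and leaving out normoxic replicate 2 gave 1. The day 2 count was 0 of 7 (0% of all genes; 846 genes and 0 members at an unadjusted p under 0.05) with a median of −0.06. Between day 7 and day 2 it was also 0 of 7 (0.0367% of all genes; 1295 genes and 3 members), with a median of 1.14, and 2 without day 7 replicate 2.

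Per exon length the order in normoxic XEN cells was Rhox5 (240 ± 21 exon-length TPM, SD, n = 2), Rhox2h (6.59 ± 1.6), Rhox2a (5.04 ± 2.5), Rhox1 (4.02 ± 0.82), Rhox2g (1.69 ± 0.13), Rhox2f (1.67 ± 0.0059) and Rhox2b (0.819 ± 0.49). Rhox2a did not differ from Rhox2h or from Rhox1 beyond its spread, nor did Rhox2g from Rhox2f. On day 7 the Rhox2a and Rhox2h values were 19.7 ± 9.2 and 19.2 ± 15. The genes most like the mean Rhox course over the 6 XEN libraries were Ltbr (r = 0.9948), Arpin (0.9923), Tdrd7 (0.9922), Gstm4 (0.9921) and Cep41 (0.9882), out of 2333 genes. This mean takes the nearly identical Rhox2 copies singly. Ltbr, a TNF receptor family member, was at 5.90 and 7.29 TPM in normoxia and 44.1 and 11.96 TPM on day 7, high in the same library as Rhox2.

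Rhox5 can be set side by side across the cell types, with the limit that each table was normalized separately. Its normoxic level was 85.3 ± 7.6 TPM in ESCs, 1640.2 ± 329 TPM in TSCs and 103 ± 9.2 TPM in XEN cells (SD, n = 2), and on day 7 it was 250.4 ± 15 TPM, 1257 ± 95 TPM and 111.6 ± 17 TPM. The ESC and XEN ranges in normoxia lay next to each other without overlap, and the TSC level was above both throughout. Rhox6 and Rhox9 averaged 15.9 ± 5.8 and 15.01 ± 1.4 TPM in normoxic ESCs against 3025 ± 885 and 2448 ± 667 TPM in normoxic TSCs, and neither was listed for XEN cells. The day 7 ESC levels of this pair, 70.0 ± 2.3 and 64.3 ± 2.8 TPM, were below every TSC library.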

How the data were processed

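RNA-seq libraries of ESCs, TSCs and XEN cells (normoxia, hypoxia day 2 and day 7, 2 replicates each) were read from 3 deposited tables. Per the study's methods and the submitters' processing notes, the authors trimmed 75-base read pairs with cutadapt 2.4, aligned them to mm10 with STAR 2.7.5a, used StringTie 2.0.6, featureCounts and edgeR 3.26.8, and kept protein-coding genes over a CPM minimum. The deposited values are TPM made by the authors, scaled to the same sum in every library, with gene span as length. Reads were recovered as TPM times span, except that Rhox5 gave whole reads with a length of 5675 bases, longer than its GENCODE M21 span of 4034.

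Members are all genes named Rhox plus a digit. Members and gene lists were chosen with earlier results of these data known. For each cell type, limma 3.58.1 (R 4.3.3, trend) was fitted to log2(TPM + 0.5) of genes over 0.4 TPM in at least 2 of 6 libraries, with no block, and p-values were Benjamini-Hochberg adjusted over all tested genes. The test was chosen because the files hold no counts, and was tested on simulated data. DE means an adjusted p of at most 0.1 and a fold change over 1.5. With 2 libraries per group the smallest exact permutation p is 0.333, so no such test is given. Of lists, at most 3 DE genes with the largest change are named, or else the 2 with the largest change. The 5 similar genes had the highest Pearson correlation with the mean centred log2 value of the members. Transcripts came from GENCODE M21 and promoters from RefSeq. Alternatives were another pseudocount, filter, scaling, length, threshold or model, a replicate block, and leaving out each library.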

Additional observations from a re-analysis of the deposited data

Results flagged for a closer look

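Rhox5, the only member listed in all 3 tables, had log2 fold changes of opposite sign in ESCs and TSCs on day 7. Both hypoxia day 7 libraries were above both normoxic libraries in ESCs and below them in TSCs, with log2 fold changes of 1.55 and −0.37. Both day 7 libraries were also above both day 2 libraries in ESCs and below them in TSCs, with 1.504 and −0.94. In TSCs the value against normoxia did not pass the threshold (adjusted p = 0.651) and stood beside a median of −0.18 over all genes, and the call against day 2 (0.0631) was lost under median-ratio scaling (0.218) and voom (0.110). The difference between the cell types was not tested, since the tables were normalized separately, and the ESC values took part in the choice of the genes.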

How the results depend on the processing

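Single-gene values were followed for members past 1.5-fold, all members in ESCs on day 7 against normoxia, and Rhox5 in TSCs on day 7. Most smaller values are thus left out of this count. Of these 704 values under the alternatives, 639 kept their direction and side of the threshold, 47 lost and 14 gained it, and 4 changed sign. Of 300 counts and medians 28 moved. The cause of the following changes was not tested. With the replicate block the DE count in ESCs went from 5 to 3 on day 7 against normoxia (without Rhox1 and Rhox6) and from 3 to 1 against day 2 (without Rhox2a and Rhox9), and it changed no other count of DE members by over 1.5 times. The numbers do not pair the libraries by the labels, and the deviations of same-numbered libraries correlated at −0.46 to 0.27. A crossed replicate block, chosen after seeing the data, gave 5 in ESCs and 2 in XEN cells on day 7 against day 2 and 0 in TSCs on day 2 against normoxia. On day 7 against day 2 in ESCs, fitting only the 4 libraries compared gave 1, and a pseudocount of 1 gave a median of 1.33. At an adjusted p of 0.05 the TSC count on day 7 against day 2 went from 3 to 1. In TSCs on day 7 against day 2, the Rhox5 call was lost under median-ratio scaling (adjusted p 0.218) and voom (0.110), and the Rhox12 call without a filter (0.128) and without the trend (0.108). Leaving out 1 library at a time gave these ranges. DE counts were 1 to 5 in ESCs on day 7 against normoxia and 0 to 4 against day 2, 0 to 4 in TSCs on day 7 against day 2, and 0 to 2 in XEN cells in both day 7 comparisons. Medians were 0.015 to 0.48 in ESCs on day 2, 0.50 to 1.03 in TSCs on day 7 against normoxia, and in XEN cells on day 7 0.36 to 2.08 against normoxia and 0.37 to 2.07 against day 2. Of the values past 1.5-fold, 4 of 41 changed sign, namely Rhox12 in TSCs on day 7 against normoxia (−0.20 to 1.77), Rhox2g in XEN cells (−0.12 to 2.37 against normoxia, −0.27 to 2.23 against day 2) and Rhox2f in XEN cells (−0.12 to 1.90 against day 2). Among values under 1.5-fold, 18 of 28 changed sign in at least 1 alternative, all of them at most 0.26 in size. Having 2 libraries per condition and low read numbers for Rhox2 and Rhox4 copies limits these values.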

Other observations

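Some genes known for DNA methylation, DNA demethylation or the silencing of germline genes were lower in TSCs on day 7 than on day 2, where 13.8% of all genes were. Of 9 DNA methylation and demethylation enzymes 3 fell: Tet1 from 5.89 and 4.22 TPM to 0.443 and 0.391 TPM (log2 fold change −2.58), the de novo methyltransferase Dnmt3b from 148 and 124 TPM to 46.2 and 34.6 TPM (−1.74), and Tet2 (−0.95). Of 22 H3K9 methylation and PRC1.6 repressors 5 fell, led by the methyltransferase Suv39h2 (−1.45), Pcgf6 (−0.79) and Setdb1 (−0.78). Other paired-like and placental homeobox genes had 4 of 17 lower, with Uncx (−2.14), Phox2a (−1.94) and Otx1 (−1.68) in front. Meiosis and germline genes had 4 of 18 lower, Tuba3a (−1.24), Piwil2 (−1.01) and Tdrd1 (−0.99) among them. The median of all genes in this comparison was −0.24. Under median-ratio scaling, which brought it to 0.01, the lower counts were 2 of 9 enzymes, 1 of 22 repressors, 3 of 17 homeobox genes and 1 of 18 germline genes by the same threshold. Tet1 (−2.40), Dnmt3b (−1.47) and Suv39h2 (−1.18) stayed DE, and Tet2, Pcgf6 and Setdb1 did not. Without day 2 replicate 1 or day 7 replicate 2 all 4 counts were 0, and without day 7 replicate 1 they were 2, 2, 2 and 1. These list counts under other settings were added after seeing the data.

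Of the X-linked testis families, which were DE and higher in ESCs, 11 were tested in TSCs on day 7 against day 2. Fthl17a was DE and higher, from 2.24 and 1.70 TPM to 5.17 and 10.2 TPM, and Xlr3b DE and lower, from 23.8 and 14.3 TPM to 7.77 and 8.70 TPM, a call lost under median-ratio scaling (adjusted p 0.172). Core hypoxia genes had 6 of 10 lower in that comparison (3 of 10 under median-ratio scaling, 0 to 8 with 1 library left out), with Pdk1 (−2.44), Aldoc (−2.35) and Bnip3 (−1.77) leading, after 4 of 10 were higher on day 2 than in normoxia. In XEN cells on day 7 against normoxia, 1 of 9 core hypoxia genes was DE, Egln3, from 11.8 and 14.4 TPM to 80.6 and 110.2 TPM. In that comparison 0 of 8 DNA methylation enzymes, 0 of 22 repressors, 0 of 4 germline genes and 0 of 12 genes of the X-linked testis families were DE by limma, with 1 gene of each group at an unadjusted p under 0.05.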
